A study of Mus musculus with 28 samples.

Results

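Klk1b11, Klk1b8, Akr1c18 and Pcsk1 are 4 of the 19938 mouse genes with a probe set of 1 gene symbol in this series. They were chosen by their measured levels, which differed widely between Th1 and Th17 cells 5 days after transfer, so the day 5 difference of these genes is given as a description, without a test. Each has a single such probe set. Gene expression was measured on 28 Affymetrix arrays of TRP1-specific CD4+ T cells, which carry a transgenic receptor for a peptide of the melanocyte protein TRP1. The donors were BwTRP1 Rag1-/- mice, which make no other T or B cells. Every culture was started with peptide-pulsed, irradiated C57/B6 splenocytes and lasted 7 days. Th1 cells were cultured with IL-12 and anti-IL-4. Th17 cells were cultured with IL-1, IL-6, IL-21 and TGFβ2, with antibodies against IL-2, IL-4 and IFN-γ, and later with IL-23. IL-2 was added to both kinds of culture after the first days. Cells were then transferred into B6.PL mice, marked by Thy1.1, that had received 5 Gy of irradiation. They were recovered from pooled spleens and inguinal lymph nodes by CD4 enrichment and sorting for Thy1.2. One portion of each recovered sample was stimulated again through CD3 and CD28 for 2 h, and the other was not. Day 0, the end of culture, has 1 array for each type and condition. Day 5 has 3 arrays for each of Th1 and Th17 in each condition, and day 15 has 2 Th1 and 4 Th17 arrays in each condition. Nothing in the labels ties the samples of a group to different mice. The p-values therefore describe the spread among the arrays at hand, which may be technical.

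Th1 cells make interferon gamma and Th17 cells make interleukin 17A, and both arise from naive CD4+ T cells under the cytokines named above. None of the 4 genes belongs to the textbook program of either type. Klk1b11 and Klk1b8 encode tissue kallikreins, secreted serine proteases that in the mouse form a large tandem gene family best known from the salivary glands. Akr1c18 encodes a hydroxysteroid dehydrogenase that inactivates progesterone and is best known from the ovary. Pcsk1 encodes a proprotein convertase that cuts prohormones inside the secretory granules of endocrine and nerve cells.

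All values are log2 RMA levels, so a difference of 1 is a doubling, and a difference below 0 in a Th17 minus Th1 comparison means a lower level in Th17 cells. Array medians ran from 6.77 to 7.09. The files give no detection calls, so a level well under the array median is not shown to lie above background, and a fold against it can understate the change. Levels of different probe sets are not set against each other. The T cell marker list (6 of 7 genes measured) averaged between 12.0 and 12.6 on every array. The list of salivary gland markers (8 of 9 genes measured), the tissue in which Klk1b genes are best known, averaged between 4.94 and 5.46 on all 28 arrays. The mast cell and basophil list (10 of 10 measured) averaged 9.75 to 10.1 in the day 0 cultures and 5.66 to 6.62 after transfer. The myeloid list (14 of 14 measured) averaged 9.15 in the unstimulated Th17 culture and 6.75 in the Th1 culture. In these bulk samples, fewer cells that express a gene and less RNA per cell cannot be told apart.

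Klk1b11 was the gene with the largest difference between the types at day 5 without restimulation. In the unstimulated Th1 samples it stood at 8.95, 9.57 and 9.41, a mean of 9.31 ± 0.33 (SD, n = 3). In the Th17 samples it stood at 4.98, 5.44 and 5.43, a mean of 5.28 ± 0.27 (SD, n = 3). Every Th1 sample was above every Th17 sample, and the gap between the nearest samples was 3.50. The Th17 minus Th1 difference was -4.03, or 16.3-fold lower in Th17 cells, and ranked 1 by size among all genes. After restimulation the Th1 samples read 8.29, 9.02 and 8.64 and the Th17 samples 5.95, 5.45 and 5.01, a difference of -3.18 or 9.06-fold, ranked 7 by size. The groups again did not overlap.

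The high level of Klk1b11 was seen at day 5 alone among the 3 days measured. At day 0 the Th1 culture read 5.43 unstimulated and 5.40 restimulated, and the Th17 culture read higher, at 6.80 and 6.22. The myeloid list was also higher in the Th17 culture, and its part in this day 0 difference was not tested. The unstimulated Th1 mean at day 5 was thus 3.88 above the day 0 value. By day 15 the Th1 samples had come back to 5.77 and 6.05 unstimulated and to 5.13 and 5.54 restimulated. The fall of the unstimulated Th1 mean from day 5 to day 15 was -3.40, or 10.6-fold. It was the most negative of that contrast over all genes and ranked 11 by size. The day 5 values in it helped to choose the gene, so these ranks are a description. In Th17 cells the day 15 levels, 5.78, 5.60, 5.83 and 5.14, overlapped those of day 5.

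Klk1b8, a neighbouring kallikrein, was also higher in Th1 cells at day 5 than at day 0 or day 15, by less, but did not read higher in the Th17 culture at day 0. At day 5 the unstimulated Th1 samples stood at 6.34, 6.91 and 7.08, a mean of 6.78 ± 0.39 (SD, n = 3). The Th17 samples stood at 5.02, 4.99 and 4.76, a mean of 4.92 ± 0.14 (SD, n = 3). All 6 samples lay below the median gene of their array, the Th1 samples nearer to it, and the groups did not overlap. The difference was -1.86 or 3.62-fold. After restimulation the Th1 samples read 5.68, 5.98 and 6.25 and the Th17 samples 4.57, 5.11 and 4.77, a difference of -1.16. In this condition all 6 samples were below the array medians. The day 0 cultures read 4.95 for Th1 and 4.69 for Th17 without restimulation, and 4.78 and 4.62 with it. At day 15 the Th1 samples were at 5.14 and 5.10, so the unstimulated Th1 mean fell by 1.66 from day 5.

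**Figure D1:**
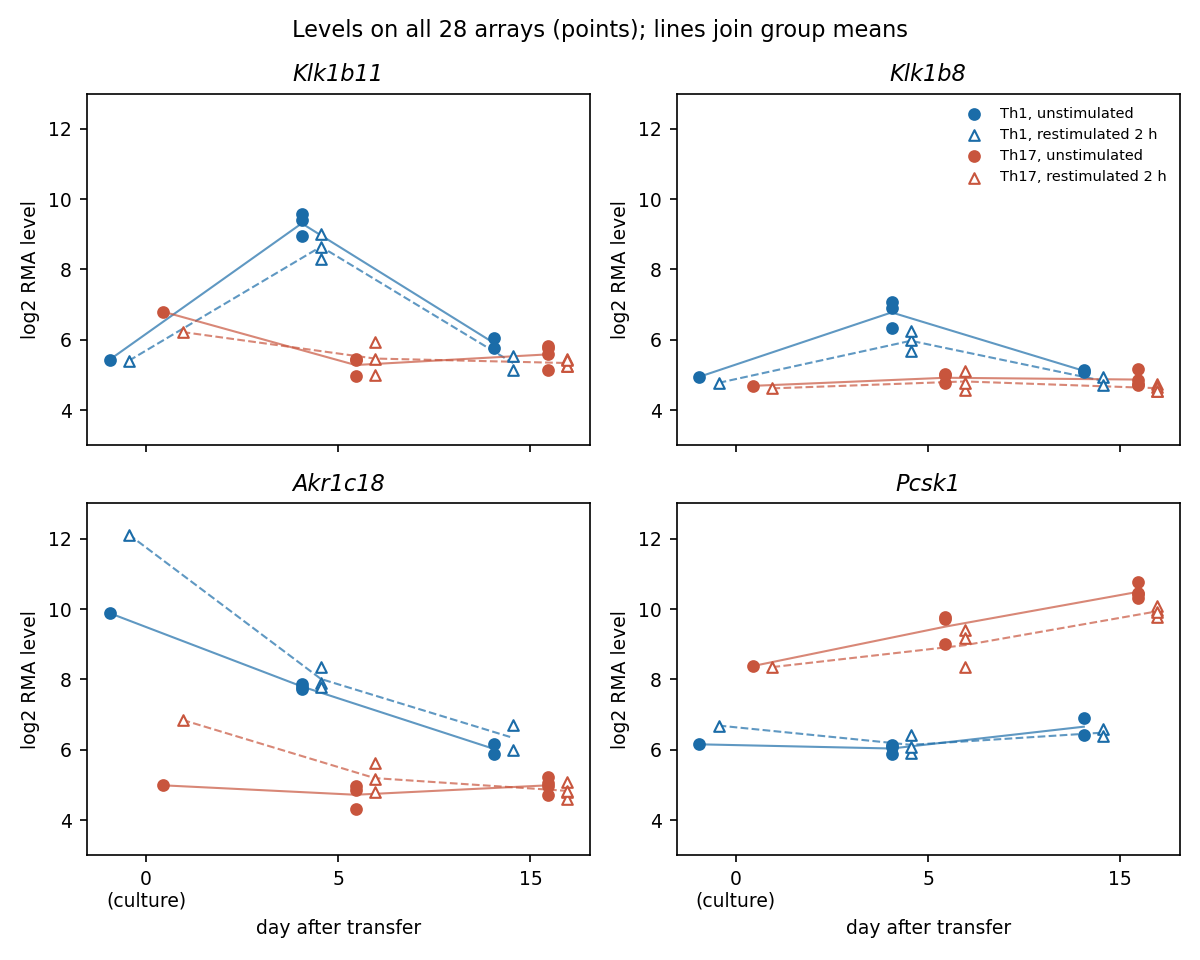
Log2 RMA level (vertical axis) of Klk1b11, Klk1b8, Akr1c18 and Pcsk1 on each of the 28 arrays at day 0, 5 and 15 (horizontal axis, evenly spaced and not to scale in days, with points offset sideways by group); blue is Th1, red is Th17, filled circles are unstimulated, open triangles are restimulated for 2 h, and lines join group means. Klk1b11 in Th1 cells goes from 5.43 to a mean of 9.31 and back to 5.91, Akr1c18 in Th1 cells goes down from day to day, and Pcsk1 in Th17 cells goes up.

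Klk1b8 and Klk1b11 lie in a tandem array on chromosome 7, with Klk1b1 and Klk1b9 between them. The 250 bases upstream of the annotated start of these 4 neighbours are shown for how alike the copies are there. Array probes match transcripts, so this likeness does not show how far a probe set can tell copies apart. The sequences are from RefSeq, build GRCm38.p6, plus strand, read toward the gene start. The capitals mark TTTAAA, a motif chosen after the sequences were seen.
Klk1b8, chr7:43950416-43950665: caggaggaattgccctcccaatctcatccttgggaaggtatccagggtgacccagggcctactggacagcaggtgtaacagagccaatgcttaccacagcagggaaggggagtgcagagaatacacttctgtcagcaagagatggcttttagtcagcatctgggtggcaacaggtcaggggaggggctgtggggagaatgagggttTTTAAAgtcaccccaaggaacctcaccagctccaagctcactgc
Klk1b1, chr7:43966501-43966750: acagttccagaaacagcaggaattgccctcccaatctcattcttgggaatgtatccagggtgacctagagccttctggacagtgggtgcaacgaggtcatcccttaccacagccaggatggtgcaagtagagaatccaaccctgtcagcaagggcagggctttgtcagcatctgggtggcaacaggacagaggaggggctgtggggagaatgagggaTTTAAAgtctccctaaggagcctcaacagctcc
Klk1b9, chr7:43975811-43976060: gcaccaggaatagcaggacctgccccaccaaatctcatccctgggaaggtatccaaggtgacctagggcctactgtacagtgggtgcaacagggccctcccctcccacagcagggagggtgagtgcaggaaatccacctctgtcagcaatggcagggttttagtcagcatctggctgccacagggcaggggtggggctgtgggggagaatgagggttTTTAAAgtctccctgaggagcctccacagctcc
Klk1b11, chr7:43995627-43995876: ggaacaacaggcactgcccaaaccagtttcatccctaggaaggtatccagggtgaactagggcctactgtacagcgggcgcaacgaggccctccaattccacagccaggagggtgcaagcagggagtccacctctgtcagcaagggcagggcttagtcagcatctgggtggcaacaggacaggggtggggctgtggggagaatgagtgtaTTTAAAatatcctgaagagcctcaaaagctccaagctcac
Each of the 10 Klk1b promoters searched held TTTAAA within these 250 bases, against 12.1% of 32851 promoters of the same length. The 10 were chosen by name, and those of Klk1b3, Klk1b4 and Klk1b21 were not searched. The motif reads the same on both strands. Of 45 pairs among the 10 Klk1b promoters, identity over aligned columns ran from 64.4% to 89.7%, with a median of 77.7%. Among these 10, Klk1b11 was most like Klk1b16 (89.7%), and it was 76.3% identical to Klk1b8, 77.7% to Klk1b1 and 78.4% to Klk1b9. The other 7 motifs searched on both strands were the TATA box (TATAAA), the STAT motif (TTCNNNGAA), the AP-1 motif (TGANTCA), the ROR motif (AGGTCA), the T-box motif (TCACAC), the Runx motif (TGTGGT) and the GATA motif (AGATAA). None of these 7 was in the Klk1b11 window. AGGTCA was in 7 of the 10 Klk1b windows, among them Klk1b8, Klk1b1 and Klk1b9, and in 14% of all promoters. The Klk1b windows come from related copies and are not independent promoters, so their shares are no test against all promoters. A match here is a run of letters and not a measured site.

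The other probe sets of the family served as a check on how specific the signal was. No probe set carried the symbol Klk1, Klk1b3, Klk1b4 or Klk1b21, so the check did not reach these genes. Besides the 2 members, 9 probe sets carry a Klk1b symbol, 1 of them with several symbols (Klk1b26 and Egfbp2). At day 5 without restimulation, 5 of these 9 were lower in Th17 than in Th1 cells and 0 were higher (limma, adjusted over all 35556 probe sets). Over all probe sets, 0.63% were lower by the same rule and 1.95% changed in either direction. The 9 probe sets had a median difference of -0.58, against -0.04 over all genes tested. These probe sets may share RNA with Klk1b11, since the genes belong to the same tandem family, so they are not taken as independent of it. The sequences of the probes were not used here, and the part played by cross-hybridisation was not tested.

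Klk1b9, which lies next to Klk1b11 and encodes an EGF-binding protein, had the largest difference of the 9. Its Th1 samples at day 5 stood at 7.77, 8.31 and 7.78 and its Th17 samples at 6.44, 6.21 and 6.50. The groups did not overlap, and the limma difference was -1.57 (2.97-fold, adjusted p = 1.06e-05, n = 3 and 3). Klk1b27 was lower by -0.94, the pseudogene Klk1b7-ps by -0.93, the probe set shared by Klk1b26 and Egfbp2 by -0.59, and Klk1b5 by -0.58. The 4 that did not pass read -0.47 for Klk1b22, -0.44 for Klk1b24, -0.29 for Klk1b1 and -0.16 for Klk1b16. Klk1b1 lies between Klk1b8 and Klk1b9, so the order of differences did not follow the order of the genes. Klk1b16, with the promoter most like that of Klk1b11 among the promoters compared, had the smallest difference of the 9. Its levels were 3.50 ± 0.09 in Th17 and 3.66 ± 0.20 in Th1 cells (SD, n = 3 each). Both levels were well under the array medians, so a difference there can be understated.

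After restimulation at day 5, 3 of the 9 were lower in Th17 cells and 0 higher (0.515% of all probe sets were lower). They were Klk1b9 at -1.15, Klk1b27 at -0.69 and the shared probe set at -0.54. At day 15 without restimulation 1 was lower, Klk1b27, by -0.63 (limma adjusted p = 0.0117 over all probe sets, of which 2.07% were lower). Its Th1 samples read 5.81 and 5.70 and its Th17 samples 5.04, 5.10, 5.24 and 5.12. Over the one-symbol genes this call was lost without Th1 sample 1, at -0.57 (limma adjusted p = 0.0899). At day 15 with restimulation 1 was lower, Klk1b9, by -0.75 (adjusted p = 0.0225 over all probe sets, of which 1.48% were lower). Over the one-symbol genes that call was lost without Th1 sample 2, at -0.63 (limma adjusted p = 0.0689), and with array weights, at -0.68 (adjusted p = 0.292). In the day 0 cultures Klk1b9 stood at 6.36 in Th1 and 6.35 in Th17 cells, and Klk1b1 was higher in Th17 (5.85) than in Th1 (4.30), the same side as Klk1b11.

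**Figure D2:**
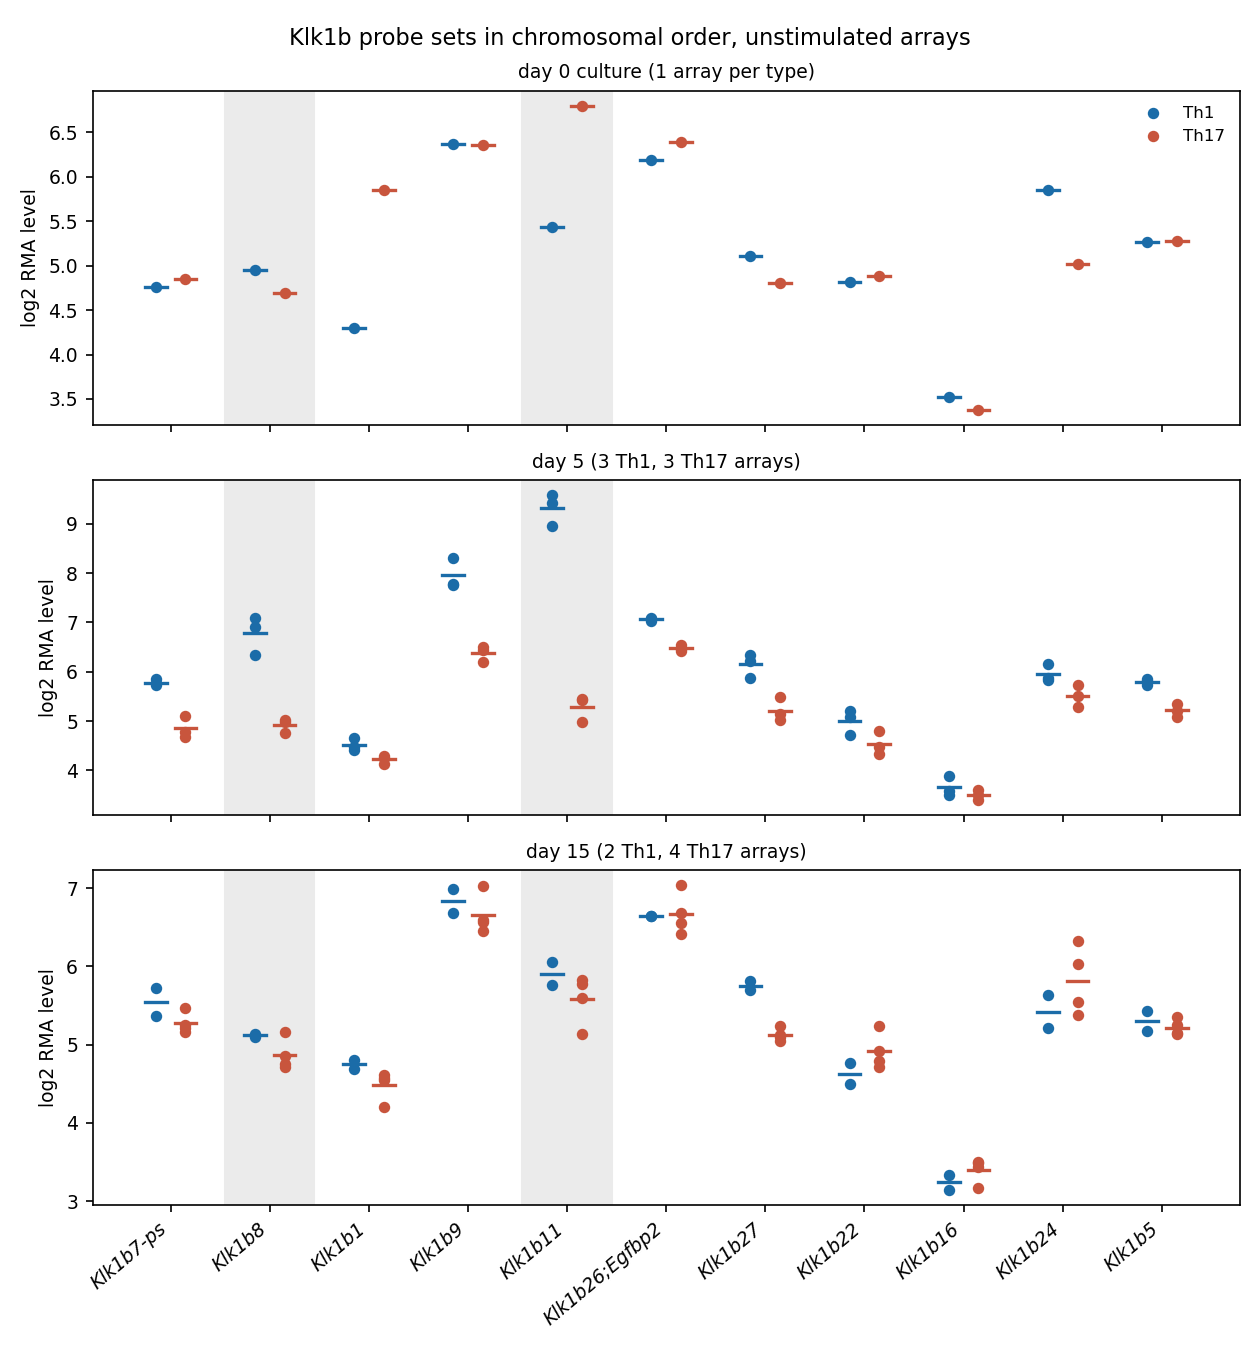
Log2 RMA level (vertical axis, own scale in each panel) of the 11 Klk1b probe sets in the order of their genes along the chromosome (horizontal axis) on the unstimulated arrays at day 0, 5 and 15; points are arrays, bars are group means, blue is Th1, red is Th17, and grey bands mark Klk1b8 and Klk1b11. At day 5 Klk1b11, Klk1b8 and Klk1b9 show the widest gaps (-4.03, -1.86 and -1.57), and at day 15 most groups overlap.

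The wider kallikrein and kinin list, which leaves out the 2 members, had 23 of 28 genes measured. In Th17 against Th1 cells, 3 were lower and 0 higher at day 5 unstimulated, all of them Klk1b genes (Klk1b9, Klk1b27 and Klk1b5), where 3.63% of all genes were called. The list's median difference was -0.15, against -0.04 over all genes. The 12 genes Klk4 to Klk15, the more distant kallikreins of the same chromosome, lay between -0.42 and 0.07, with 0 called by limma and 1 at an unadjusted p under 0.05. At day 5 restimulated 2 were lower (3.98% of all genes were called). At day 15 1 of the 23 was lower in each condition, where 4.15% and 6.43% of all genes were called. The kininogens and bradykinin receptors of the list were not called.

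At day 15 the 2 kallikrein members were tested, since the rule did not use that day. Neither passed. The unstimulated Th17 minus Th1 difference of Klk1b11 was -0.32 (95% interval -0.81 to 0.16, limma adjusted p = 0.590, n = 4 and 2), and the restimulated one was 0.00 (-0.48 to 0.48, adjusted p = 0.998). In the restimulated condition its Th1 samples stood at 5.13 and 5.54 and its Th17 samples at 5.44, 5.25, 5.25 and 5.43, fully overlapping. For Klk1b8 the Th17 samples stood at 4.72, 4.85, 5.16 and 4.75 and the difference was -0.25 (-0.62 to 0.12, limma adjusted p = 0.589). Restimulated, Klk1b8 read 4.94 and 4.72 in Th1 and 4.74, 4.56, 4.67 and 4.53 in Th17 samples, a difference of -0.21 (-0.58 to 0.16, adjusted p = 0.654). The intervals leave room for a difference of up to 0.81, and none of the size seen at day 5 lies within them. All day 15 levels of both genes lay under the array medians, where RMA draws values together, so a difference can be understated.

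Akr1c18 was high in Th1 cells already in culture. The day 0 Th1 array read 9.88 and the Th17 array 4.99, a difference of -4.90 or 29.8-fold, and ranked 10 by size among all genes. After restimulation at day 0 the Th1 array read 12.12 and the Th17 array 6.85, so the level was higher by 2.23 and 1.86 than without it. With 1 array in each, these differences have no replicate check. The mast cell and basophil list averaged 9.76 in the Th1 and 9.75 in the Th17 culture, but its genes went both ways. Mcpt8, a basophil protease, read 10.72 in Th1 and 9.72 in Th17, the side of Akr1c18, while Kit, the stem cell factor receptor, read 10.20 and 11.50. Their part in the Akr1c18 difference was not tested.

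At day 5 the unstimulated Th1 samples of Akr1c18 stood at 7.86, 7.74 and 7.80, a mean of 7.80 ± 0.06 (SD, n = 3). The Th17 samples stood at 4.98, 4.86 and 4.33, a mean of 4.72 ± 0.35 (SD, n = 3). There was no overlap, and the difference was -3.08 or 8.44-fold. The restimulated samples read 7.90, 7.79 and 8.35 in Th1 and 5.16, 5.62 and 4.80 in Th17 cells, a difference of -2.82. Without restimulation the Th1 level of Akr1c18 fell by 2.08 from its day 0 value, while the Th17 level lay near its day 0 value of 4.99. With restimulation the day 5 minus day 0 difference was -4.11 in Th1 and -1.65 in Th17 cells.

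At day 15, which the rule did not use, Akr1c18 was still higher in Th1 cells. The unstimulated Th1 samples stood at 6.16 and 5.89 and the Th17 samples at 4.96, 4.72, 5.23 and 5.05. They did not overlap, and the difference was -1.03 (95% interval -1.48 to -0.59, 2.05-fold, limma adjusted p = 0.00509, n = 4 and 2). The restimulated Th1 samples stood at 6.69 and 5.98 and the Th17 samples at 5.08, 4.81, 4.60 and 4.84, again without overlap. That difference was -1.51 (-1.95 to -1.06, 2.84-fold, limma adjusted p = 8.13e-05). The unstimulated call was lost without Th1 sample 1, at -0.90 (limma adjusted p = 0.113). All 12 levels at day 15 were under the array medians. The NK marker list (5 of 6 genes measured) moved with it: it averaged 7.10 to 7.56 over the unstimulated Th1 samples against 6.33 to 6.42 over the Th17 samples, and its part in the Akr1c18 difference was not tested. At day 5 unstimulated that list averaged 6.21 to 6.53 in Th1 and 6.37 to 6.94 in Th17 samples. The erythroid list (3 of 8 genes measured) averaged 8.92 to 9.34 in restimulated Th1 and 8.02 to 8.24 in restimulated Th17 samples at day 15. With that list as a covariate the Akr1c18 differences were -0.99 and -1.42, both still called. The part of the erythroid list in these differences was not tested.

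Among the relatives of Akr1c18, Akr1c12 and Akr1c13, a pair of aldo-keto reductases of the same family, were also lower in Th17 cells. At day 5 unstimulated, Akr1c13 stood at 7.58, 7.48 and 7.65 in Th1 and 6.31, 6.31 and 6.35 in Th17 samples. The groups did not overlap, and the difference was -1.25 (2.37-fold, limma adjusted p = 9.75e-07, n = 3 and 3). Akr1c12 stood at 6.55, 6.63 and 6.72 in Th1 and 5.39, 5.26 and 5.57 in Th17 samples, a difference of -1.23 (limma adjusted p = 0.00011). The other 6 Akr1c genes measured lay between -0.15 and 0.15, with 0 called by limma and 0 at an unadjusted p under 0.05. The 250-base promoters of Akr1c12 and Akr1c13 were 92.5% identical to each other, and that of Akr1c18 was 47.5% and 47.6% identical to them. The part of cross-hybridisation between Akr1c12 and Akr1c13 was not tested.

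The steroid metabolism list, which leaves out Akr1c18, had 26 of 27 genes measured. At day 5 unstimulated 2 were lower in Th17 cells and 0 higher, namely Akr1c12 and Akr1c13, and the list's median difference was -0.07 against -0.04 over all genes. After restimulation at day 5, 2 were lower and 1 higher. Akr1c13 fell by 0.97 relative to Th1 (limma adjusted p = 3.43e-05) and Akr1c12 by 0.81 (adjusted p = 0.0086), where the Akr1c12 call ended when Th1 sample 2 or Th17 sample 1 was left out (-0.66 each, adjusted p = 0.0733 and 0.0788) and with the myeloid list as a covariate (-0.83, adjusted p = 0.0518). Hsd17b11, a hydroxysteroid dehydrogenase of lipid droplets, was 0.61 higher in Th17 cells (limma adjusted p = 0.019). That call was lost without Th1 sample 1 or 2 or Th17 sample 1 or 3, with differences of 0.50 to 0.61, and with the myeloid covariate (0.46).

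At day 15 unstimulated, Akr1c12 was the only gene of this list called. Its Th1 samples read 6.81 and 6.96 and its Th17 samples 5.95, 6.11, 5.56 and 6.34, a difference of -0.89 (limma adjusted p = 0.00677). That call was lost without Th1 sample 2, at -0.82 (limma adjusted p = 0.161), and with the erythroid list as a covariate, at -0.78 (adjusted p = 0.0737). Akr1c13 read 7.51 and 7.50 in Th1 and 7.19, 7.04, 6.99 and 7.50 in Th17 samples, a difference of -0.33 that did not pass (limma adjusted p = 0.248). At day 15 restimulated, the gene called was Nr3c1, the glucocorticoid receptor, 0.70 lower in Th17 cells (limma adjusted p = 0.0276). It read 0.26 lower without Th1 sample 1, and the call was also lost without Th17 sample 2, 3 or 4 (-0.69, -0.67 and -0.62) and with the erythroid covariate (-0.41). In all it was lost in 10 of 18 alternatives. Akr1c12 differed by -0.18 in that condition (adjusted p = 0.739).

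**Figure D3:**
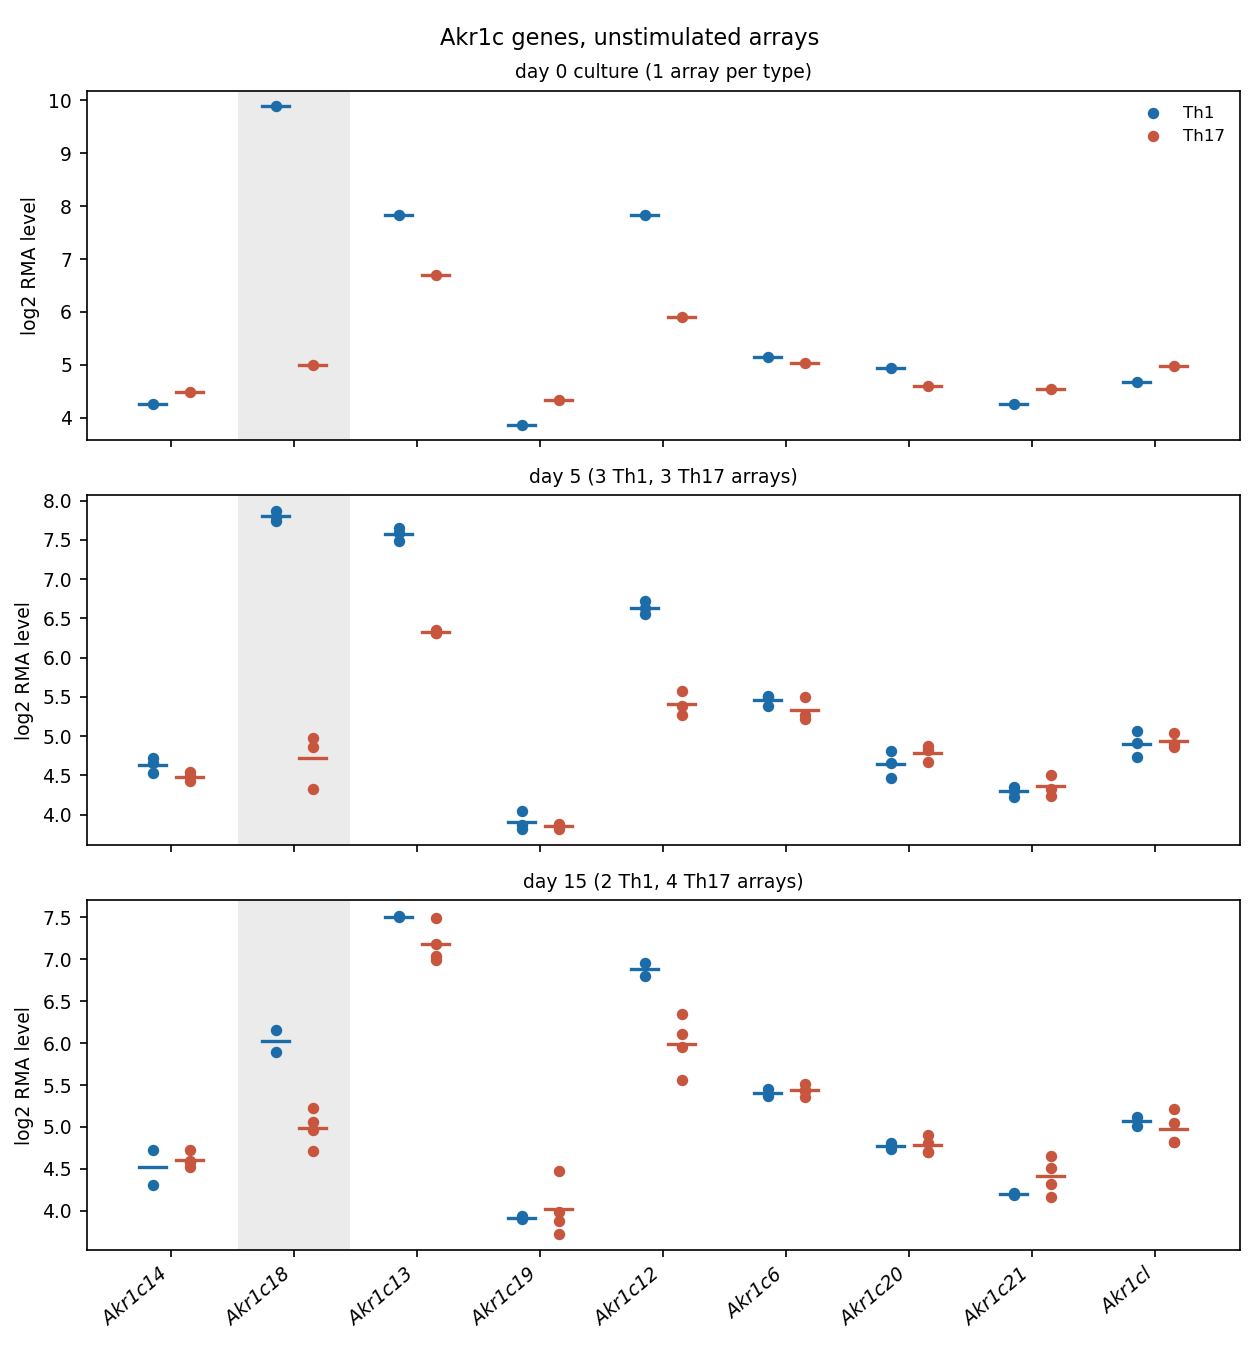
Log2 RMA level (vertical axis, own scale in each panel) of 9 Akr1c genes (horizontal axis) on the unstimulated arrays at day 0, 5 and 15; points are arrays, bars are group means, blue is Th1, red is Th17, and the grey band marks Akr1c18. At day 5 the types are apart for Akr1c18 (-3.08), Akr1c13 (-1.25) and Akr1c12 (-1.23), and the other 6 lie between -0.15 and 0.15.

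Pcsk1 was the 1 member with the higher level in Th17 cells at every day. In the day 0 cultures it read 6.15 in Th1 and 8.38 in Th17 cells, and 6.69 and 8.35 after restimulation. At day 5 the unstimulated Th17 samples stood at 9.72, 9.0 and 9.78, a mean of 9.50 ± 0.44 (SD, n = 3). The Th1 samples stood at 5.87, 6.15 and 6.09, a mean of 6.04 ± 0.14 (SD, n = 3), under the array medians. The groups did not overlap, and the difference was 3.46 or 11-fold, ranked 4 by size among all genes. After restimulation the Th17 samples read 9.39, 8.35 and 9.17 and the Th1 samples 5.92, 6.42 and 6.08, a difference of 2.83.

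Pcsk1 was also higher in Th17 cells at day 15, in samples the rule did not use. The unstimulated Th17 samples stood at 10.42, 10.76, 10.30 and 10.46 and the Th1 samples at 6.42 and 6.89. Every Th17 sample was above every Th1 sample, with 3.41 between the nearest. The difference was 3.83 (95% interval 3.36 to 4.30, 14.2-fold, limma adjusted p = 5.49e-10, n = 4 and 2), ranked 1 by size of 19938 genes. The restimulated Th17 samples stood at 9.77, 9.96, 10.09 and 9.91 and the Th1 samples at 6.58 and 6.39. That difference was 3.45 (2.97 to 3.92, 10.9-fold, limma adjusted p = 1.67e-09). The Th17 mean at day 15 was 2.10 above the day 0 value and 0.99 above the day 5 mean. The myeloid marker list moved in the same direction. At day 5 unstimulated it averaged 7.37 to 8.67 in Th17 and 6.37 to 6.69 in Th1 samples. It averaged 7.07 to 7.88 in the unstimulated Th17 samples at day 15, against 6.53 to 6.57 in Th1. With the myeloid list as a covariate, and under every other alternative run, the Pcsk1 difference at day 15 stayed between 3.23 and 4.07. At day 5 unstimulated the myeloid covariate gave 3.00, the lowest of the settings, against 3.46 without it. The list did not overlap between the types, so a covariate fitted beside group coefficients cannot show its part. The part of the myeloid list in the Pcsk1 difference was not tested.

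Of the 4 members, 2 were thus called between the types at day 15 unstimulated, Pcsk1 higher and Akr1c18 lower in Th17 cells, while 4.15% of all genes were called. At day 15 restimulated the same 2 were called, against 6.43% of all genes. The difference itself between the restimulated and unstimulated comparisons at day 15 was tested as an interaction. It called 0 of the 4 members and 0 of all 19938 genes, with limma adjusted p from 0.803 to 0.976 and unadjusted p from 0.139 to 0.872. The comparison with and without restimulation shares its samples with the type comparisons.

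Restimulated and unstimulated samples were compared at day 15. The labels do not say that equal replicate numbers mark portions of the same sample. The portions were therefore fitted as separate samples, without pairing, and the p-values below do not take shared origin into account. In Th1 cells 0 of the 4 were called by limma, against 7.29% of all genes, and 1 had an unadjusted p under 0.05. That one was Klk1b11, with a restimulated minus unstimulated difference of -0.57 (95% interval -1.13 to -0.01, limma adjusted p = 0.230, n = 2 and 2). Akr1c18 differed by 0.31 (-0.21 to 0.83) and Pcsk1 by -0.17 (-0.72 to 0.38). In Th17 cells 1 of 4 was called, Pcsk1, lower after restimulation, in a contrast that called 17.5% of all genes and 11.1% as lower. Its difference was -0.55 (-0.94 to -0.17, limma adjusted p = 0.0434, n = 4 and 4), and the groups did not overlap. That call was lost in 11 of 20 alternatives, with adjusted p up to 0.316. It was lost without unstimulated sample 1, 2 or 4 or restimulated sample 1, 2 or 4, each taken out alone, with differences from -0.58 to -0.46.

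**Figure D4:**
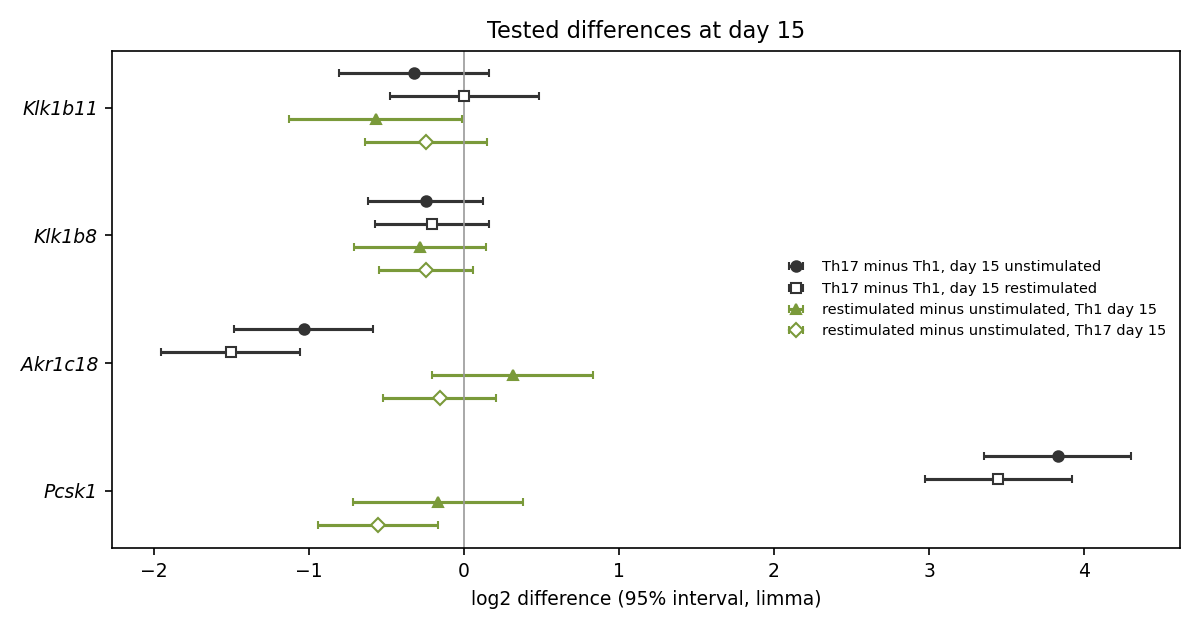
Log2 differences (horizontal axis) with 95% intervals from limma for each member (vertical axis) in the 4 tested comparisons at day 15; dark symbols are Th17 minus Th1 without (filled) and with (open) restimulation, and green symbols are restimulated minus unstimulated in Th1 (filled) and Th17 (open) cells. The type differences of Pcsk1 (3.83 and 3.45) and Akr1c18 (-1.03 and -1.51) are clear of 0, and those of Klk1b11 and Klk1b8 are not.

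The other convertases were not called between the types. Pcsk4, Pcsk5, Pcsk6, Pcsk7 and Furin, the convertase of the general secretory pathway, differed between the types by -0.10 to 0.40 at day 5 unstimulated and by -0.31 to 0.23 at day 15 unstimulated. At day 15 restimulated these 5 differed by -0.55 to 0.01. Of them, 0 were called by limma in any of these comparisons, with 0, 2 and 1 at an unadjusted p under 0.05. The convertase and secretory pathway list, which leaves out Pcsk1, had 17 of 19 genes measured. At day 5 unstimulated 1 was higher and 0 lower, and its median difference was 0.00, against -0.04 over all genes. The gene was Cpd, a carboxypeptidase that trims the ends left by convertases. It stood at 10.07, 9.25 and 9.91 in Th17 and 8.57, 8.26 and 8.51 in Th1 samples, a difference of 1.30 (limma adjusted p = 0.016). The Cpd call was lost without Th1 sample 2 or 3 or Th17 sample 1 or 3, with differences of 1.13 to 1.33, and with the myeloid list as a covariate it read 1.01 (adjusted p = 0.401). In all it was lost in 6 of 18 alternatives. At day 5 restimulated limma called 0 of the 17, with 1 at an unadjusted p under 0.05, and Cpd differed by 0.06.

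At day 15 unstimulated, 1 of the 17 was higher and 1 lower in Th17 cells. Scg5, a chaperone of a related convertase, stood at 7.07, 7.00, 7.21 and 7.10 in Th17 and 6.59 and 6.61 in Th1 samples, without overlap. The difference was 0.50 (limma adjusted p = 0.017), and the call was lost without either Th1 sample, at 0.49 and 0.51, and with the erythroid or myeloid covariate. Penk, which encodes the opioid prohormone proenkephalin, stood at 7.78, 7.79, 7.81 and 7.78 in Th17 and 9.01 and 9.68 in Th1 samples. That difference was -1.56 (limma adjusted p = 0.0318), and the call was lost when any 1 of the 6 arrays was left out, with differences of -1.89 to -1.22. It was also lost with the erythroid and myeloid covariates, at -1.46 and -1.56, and in 10 of 18 alternatives in all. After restimulation Penk read 9.23, 7.94, 8.09 and 7.71 in Th17 and 11.49 and 9.93 in Th1 samples, a difference of -2.47 (limma adjusted p = 0.000517). Without Th1 sample 1 it was -1.68 (adjusted p = 0.0568), and with the erythroid covariate -2.26 (adjusted p = 0.0620). Penk, a prohormone, and Pcsk1, a convertase of prohormones, thus differed in opposite directions at day 15, and at day 5 the Penk difference of -0.61 did not pass (limma adjusted p = 0.599). In the day 0 cultures Penk read 11.24 in Th1 and 11.88 in Th17 cells. Pcsk1n, which encodes an inhibitor of Pcsk1, was not called in any of these comparisons.

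**Figure D5:**
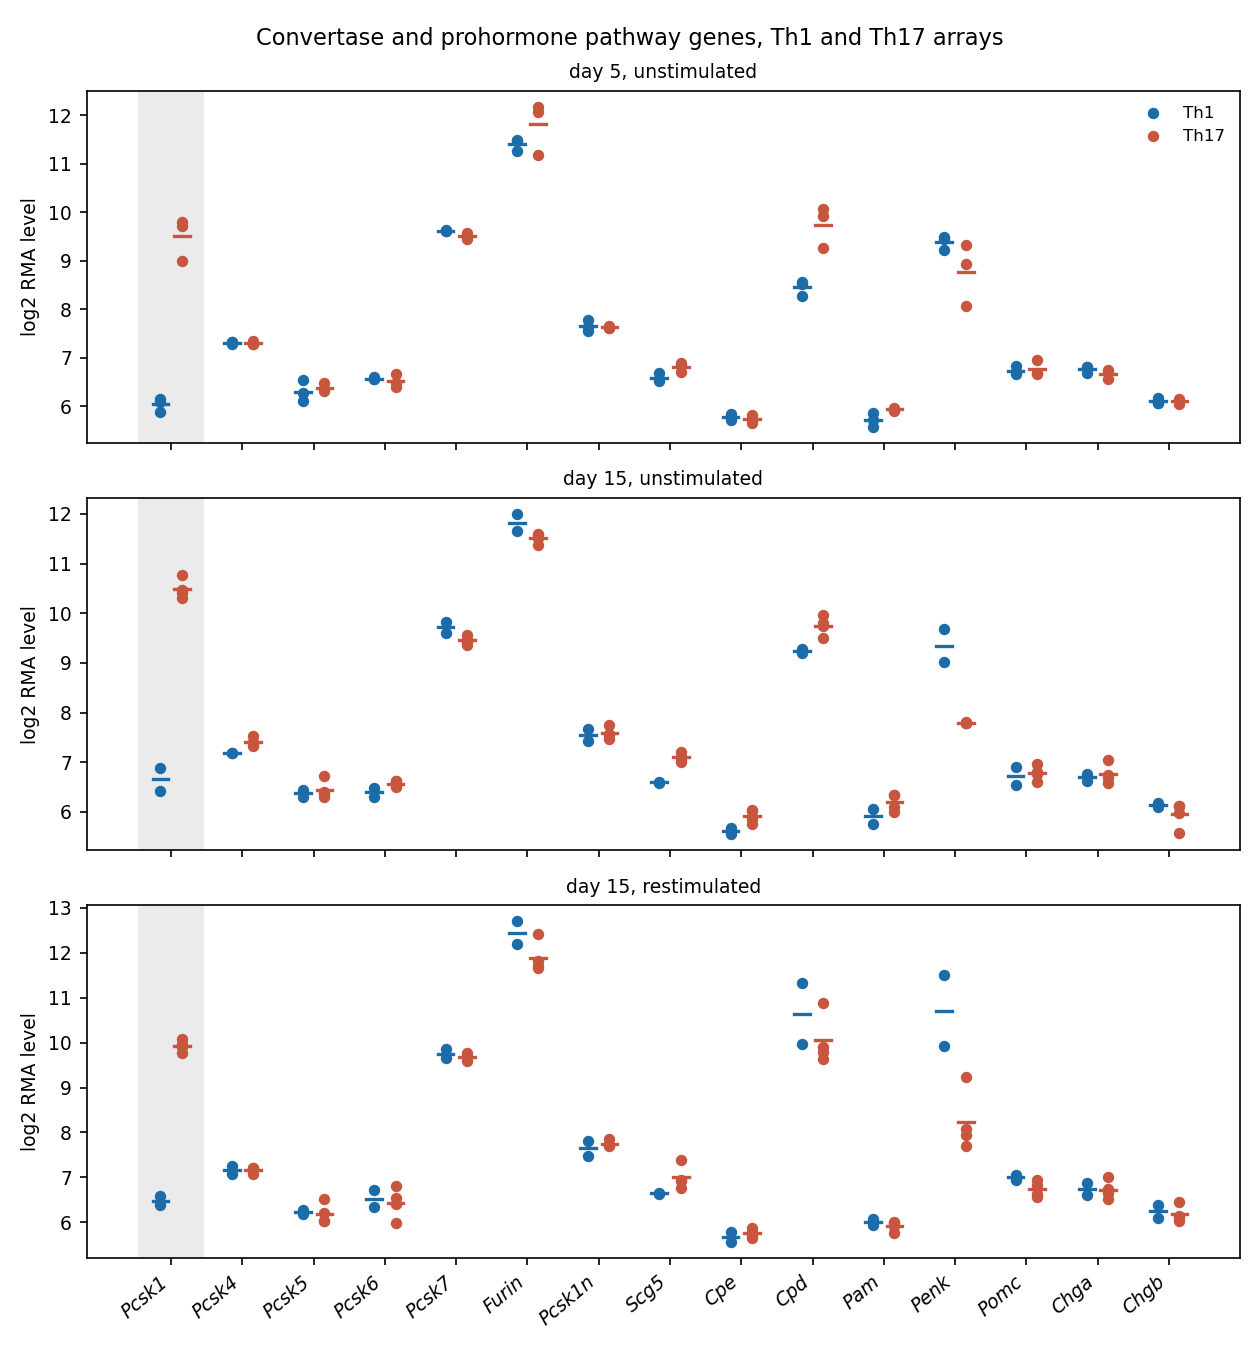
Log2 RMA level (vertical axis, own scale in each panel) of Pcsk1 (grey band) and 14 genes of convertases, their partners and prohormones (horizontal axis) at day 5 unstimulated and at day 15 in both conditions; points are arrays, bars are group means, blue is Th1 and red is Th17. Pcsk1 is apart in every panel (3.46, 3.83 and 3.45), and Penk is lower in Th17 cells at day 15 (-1.56 and -2.47). Furin and the other convertases differ by -0.55 to 0.40.

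Over the 3 related lists, 66 genes were measured. Of these, 6 were called at day 5 unstimulated (3.63% of all genes), 5 at day 5 restimulated (3.98%), 4 at day 15 unstimulated (4.15%) and 3 at day 15 restimulated (6.43%). The same-numbered Th1 and Th17 samples at day 5 restimulated deviated together, and with the replicate number as a block the count there was 8 in place of 5.

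Profiles over the 24 arrays after transfer, each centred on its mean, were compared by the root mean square (RMS) difference. The genes named are those with the smallest differences among genes other than the 4 members, with clone and predicted-gene names left out. Pcsk1 itself varied by 1.81 about its mean. Nearest to it were Igfbp4, an insulin-like growth factor binding protein (0.49), and the membrane protein genes Tmem176b (0.53) and Tmem176a (0.61). Igfbp4 was 2.66 higher in Th17 cells at day 5 and 3.18 higher at day 15, both unstimulated. Akr1c18, which varied by 1.28, lay nearest, outside the members, to Epas1, a hypoxia-inducible transcription factor (0.53), Igf2bp3, an RNA-binding protein (0.68), and Dnase1l3, a secreted DNase (0.72). The same 3 genes were nearest to Klk1b11 outside the members, in another order, Dnase1l3 at 0.77, Igf2bp3 at 0.93 and Epas1 at 0.96, where Klk1b11 itself varied by 1.56. Klk1b11 and Akr1c18 differed from each other by 0.70, which is closer than Dnase1l3 lay to either, and Klk1b11 and Klk1b8 by 0.91. In all 3 genes the Th1 excess remained at day 15, with Th17 minus Th1 differences of -1.55 for Epas1, -1.22 for Igf2bp3 and -1.21 for Dnase1l3, unlike the -0.32 of Klk1b11. Klk1b8, which varied by 0.73, lay nearest to Klk1b9 (0.34), Stau2, which binds double-stranded RNA (0.34), and Lacc1 (0.37). These are descriptions over arrays of 8 shared groups, and carry no test, since the genes were picked for their likeness.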

How the data were processed

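RNA from 28 samples of TRP1-specific CD4+ T cells was hybridised, 1 Affymetrix array each. The authors deposited log2 values made by RMA in Affymetrix Expression Console, per the submitters' processing notes; no version is given in the labels or headers. RMA corrects background, quantile-normalises arrays and summarises each probe set, which draws low values together. The labels do not say if all arrays went through RMA at once.

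Of 35556 probe sets, 21789 had 1 gene symbol in the platform annotation, 1621 several and 12146 none here. The highest-mean probe set of each gene was kept (999 genes had several), leaving 19938 genes. The 24 arrays after transfer, in 8 groups, were fitted with limma 3.58.1 (lmFit, eBayes, 16 residual degrees of freedom) in R 4.3.3, with 1 coefficient per group. A gene was called at an adjusted p (Benjamini-Hochberg) under 0.05 among the 19938 genes, or among all 35556 probe sets for the Klk1b check. Day 0, with 1 array per group, was left out of the fit. The number of arrays limits the precision. Scripts were tested on simulated data.

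The members and gene lists were chosen with earlier results of these data known. The text names the members, the Klk1b probe sets and the genes of 3 related lists called between types (up to 4 a list). It also names the 3 genes with the nearest profile to each member, clone and predicted-gene names left out. Same-numbered Th1 and Th17 samples deviated together at day 5 restimulated (correlation of deviations 0.22 to 0.48 over 3 pairs), from the data and not from the labels. At day 5 unstimulated the same-numbered correlations were 0.03, 0.07 and -0.13. At day 15 restimulated the same-numbered correlations were 0.65 and 0.06. Th1 and Th17 samples were not paired in the main fit. Promoters were aligned with Biopython 1.88. Alternatives were the compared groups alone, a filter at the median, cyclic loess, median centring, means over probe sets, a trended robust prior, array weights, replicate blocks, marker covariates, each array left out, and, chosen after seeing the data, all probe sets in the fit.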

Additional observations from a re-analysis of the deposited data

Results flagged for a closer look

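Within the 2 groups of 4 samples, the unstimulated and restimulated Th17 samples of day 15, 20 probe sets and genes were checked for a single sample far from the other 3, and chance alone gives about 1 such value in 20 checks. Klk1b1 read 4.21 in unstimulated sample 1 against 4.55 to 4.61 in the others. Klk1b16 read 3.17 in unstimulated sample 4 against 3.44 to 3.49. Penk read 7.81 in unstimulated sample 3 against 7.78 to 7.79, a small gap in a narrow range. None of the 4 members had such a value in either group.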

How the results depend on the processing

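The Th17 minus Th1 differences of the members at day 5 kept their sign under every setting run. Without restimulation they ranged from -4.21 to -3.87 for Klk1b11, -2.08 to -1.70 for Klk1b8, -3.21 to -2.88 for Akr1c18 and 3.00 to 3.72 for Pcsk1. At day 15 the Pcsk1 call held in all 18 alternatives of each condition, and the restimulated Akr1c18 call in all 17. With only genes above the median, Pcsk1 was the 1 member still tested, so 1 was called at day 15 unstimulated and 1 restimulated, and the related genes called were 1 at day 5 unstimulated, 1 at day 5 restimulated and 2 at day 15 unstimulated. With 1 array left out, members called ranged from 1 to 2 at day 15 unstimulated, from 0 to 1 for restimulation in Th17 cells, and related genes from 3 to 5 at day 5 restimulated, 1 to 4 at day 15 unstimulated and 2 to 5 at day 15 restimulated. Restimulation in Th17 cells called 0 members with cyclic loess, with the trended robust prior, with the erythroid or the myeloid covariate, and with all probe sets in the fit. Related genes called were 12 at day 5 unstimulated with array weights, 3 at day 5 restimulated with the myeloid covariate, and at day 15 restimulated 6 with cyclic loess, 1 with array weights and 8 with the erythroid covariate. The cause of these shifts was not tested. With the replicate number as a block, related genes called were 8 at day 5 restimulated and 10 at day 15 unstimulated, where the samples share only a number, and the members' calls were the same. Signs turned in uncalled values alone. Klk1b11 at day 15 restimulated (0.00) became -0.030 with array weights, -0.37 with the erythroid covariate, -0.0099 with the myeloid covariate, and -0.20 to 0.21 with 1 array left out, below 0 without restimulated Th1 sample 1 or Th17 sample 1 or 4. With 1 array left out, restimulation in Th1 cells gave -0.040 (without restimulated sample 1) to 0.67 for Akr1c18 and -0.40 to 0.066 (without unstimulated sample 2) for Pcsk1. Low signal limits Klk1b11, Klk1b8 and Akr1c18 at day 15, which lie under the array medians, and groups of 2 Th1 arrays limit day 15.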

Other observations

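Of the 66 genes of the related lists, 7 moved with restimulation at day 15, 1 of them in both types. In Th1 cells Cpd, the carboxypeptidase, was 1.40 higher after 2 h (limma adjusted p = 0.0263, n = 2 and 2, with 7.29% of all genes called). Its restimulated samples read 11.33 and 9.96 and the unstimulated ones 9.27 and 9.20, so sample 1 holds most of the difference. Srd5a3, a polyprenol reductase of the steroid reductase family, was lower by -0.78 in Th1 cells (limma adjusted p = 0.00148) and by -0.59 in Th17 cells (adjusted p = 0.000137). Its levels were 9.83 and 10.03 after restimulation against 10.67 and 10.75 before it in Th1 cells.

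In Th17 cells, where 17.5% of all genes were called, Star, which carries cholesterol into mitochondria, was 0.46 higher and the convertase gene Pcsk7 0.23 higher. The hydroxysteroid dehydrogenase genes Hsd17b4 and Hsd17b7 were lower, by -0.36 and -0.33, and the convertase gene Pcsk4 by -0.23. None of the 23 genes of the kallikrein list was called by limma in either type, with 1 in Th1 and 6 in Th17 cells at an unadjusted p under 0.05. These calls were not repeated with arrays left out, and all were chosen for naming after their values were seen.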
